A study of Mus musculus with 8 samples.

Results

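The 37 genes described here encode the signalling chains of the B cell receptor (BCR), its coreceptors and inhibitory receptors, and the kinases, adaptors, lipid enzymes and calcium proteins that act after it. They were taken by symbol from the 39017 genes measured by RNA-seq in iGBs, which are mouse splenic B cells made germinal-center-like by culture. Prmt5-null iGBs came from Prmt5F/F Cγ1-cre mice and control iGBs from Cγ1-cre mice, all C57BL6/J, so both genotypes carried the cre, which acts in B cells that transcribe the IgG1 constant region. The cells grew with IL-4 at 1 ng per mL on 40LB feeder cells, which supply CD40L and BAFF, and elutriation at day 4 separated them from the feeders. Each genotype had 4 libraries, 1 per mouse, and the mice were 2 to 4 months old and of both sexes. The Prmt5-null mice were 10617, 10618, 10770 and 10771. Values per library follow that order, and for controls begin with CTRL-10650 and CTRL-10370 and end with CTRL-10596, then CTRL-10597.

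Antigen binding to surface immunoglobulin leads Src family kinases to phosphorylate the paired chains Cd79a and Cd79b, which recruit the kinase Syk. Syk and Btk, held together by the adaptor Blnk, activate phospholipase C gamma, whose products release calcium and switch on protein kinase C, NF-kB and NFAT. The coreceptor that holds Cr2 and Cd81 lowers the threshold of this response through phosphoinositide 3-kinase, while Cd22, Cd72 and Fcgr2b recruit phosphatases that restrain it. Germinal center B cells use the receptor both to signal and to take up antigen for presentation to T cells.

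Prmt5 itself, the deleted arginine methyltransferase, had 1291, 1994, 1060.3 and 1808 normalized counts in the Prmt5-null libraries against 13087, 11084, 11657 and 11267 in the controls, so some transcript remained. Libraries held from 36731721 to 50366174 reads on genes, and the first principal component, with 34.0% of the variance, separated the genotypes. All 8 listed B cell marker genes, among them Cd79a, Cd79b and Blk, had a mean of at least 10 normalized counts. Of 5 germinal center markers, Fas (log2 fold change 0.47, adjusted p = 0.00504 in limma) and Mef2b (0.51, adjusted p = 0.0282) were higher and S1pr2 (-0.71, adjusted p = 0.00486) was lower, and of 5 measured plasma cell markers Prdm1 (-0.48, adjusted p = 0.0428) and Xbp1 (-0.45, adjusted p = 0.0305) were lower. Of 10 fibroblast genes chosen to mark the feeders, 3 were higher at an adjusted p below 0.05, and their summed level was 7403 to 12467 in Prmt5-null and 4850.0 to 8421 in control libraries. The defining T cell gene Cd3e was at 0 in every library, and the 8 T cell markers summed to 103 to 214 in Prmt5-null and 203 to 319 in control libraries. The part of these marker differences in the values below was not tested, and in bulk RNA fewer cells with a transcript cannot be told apart from less transcript per cell.

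Every one of the 37 genes was measured at a mean of at least 10 normalized counts, the minimum for testing, which 16250 genes met. Cr2 and Fcgr2b were called higher in Prmt5-null iGBs and Cd79a was called lower, at an adjusted p below 0.05 in limma and a change of at least 1.5-fold. The same criteria called 3.49% of all genes tested as higher and 2.99% as lower. At an adjusted p below 0.05 with no limit on size, 5 genes were higher, namely Cr2, Fcgr2b, Cd81, Pik3cd and Vav2, which is 13.5% of the 37 against 6.51% of all genes. On the same criterion 2 were lower, Cd79a and Grb2, which is 5.41% of the 37 against 7.33% of all genes. The other 30 genes did not pass, with log2 fold changes from -0.27 to 0.33.

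All 4 Prmt5-null libraries lay above all 4 controls for 5 of the genes, and below them for 3, whereas 9.67% of all genes tested were separated in the first way and 10.2% in the second. The median log2 fold change of the 37 genes was 0.00, as it was over all genes tested, and the median size without regard to sign was 0.16 against 0.19. By sign, 18 of the 37 were higher and 19 lower. The members did not share a direction, and the genes that passed the test had different roles in the pathway.

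**Figure D1:**
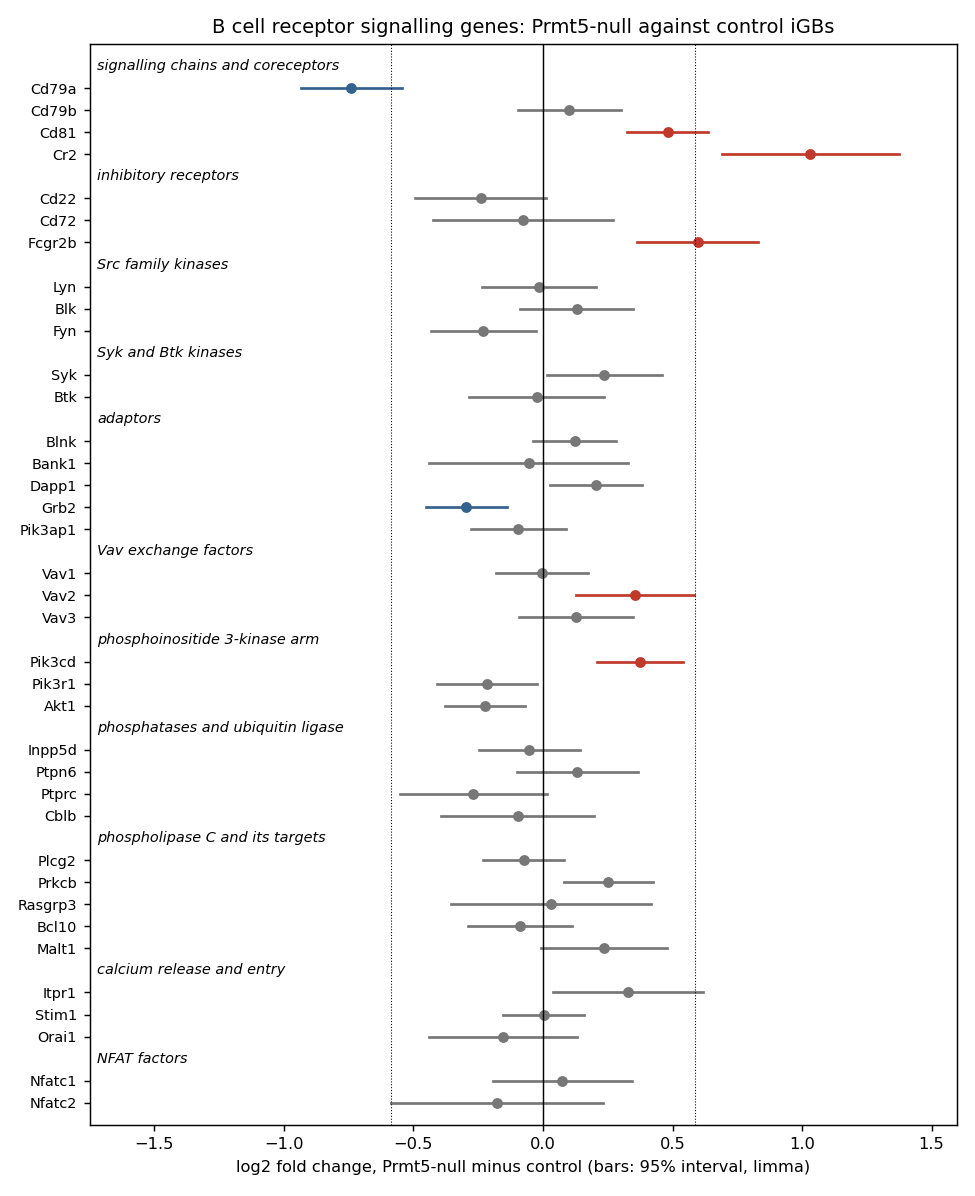
Log2 fold change of each of the 37 genes (x axis, Prmt5-null minus control, points) with its 95% interval (bars), grouped by role, with dotted lines at 1.5-fold. Red and blue mark the 5 genes that were higher and the 2 that were lower at an adjusted p below 0.05, and the 30 grey genes did not pass.

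Levels differed far more between genes than between genotypes. Per kilobase of exon, Cd79b was the most abundant in control iGBs at 19818 ± 1136 normalized reads (SD, n = 4), followed by Cd79a at 9284 ± 633, with no overlap between their libraries. Ptpn6 at 5839 ± 954, Plcg2 at 4765 ± 112 and Cd22 at 4321 ± 455 came next, and each of these overlapped its neighbour. The scarcest were Cr2 at 43.7 ± 8.49, Nfatc2 at 36.7 ± 8.01, which overlapped it, and Cblb at 21.8 ± 2.85. The receptor chains and the phosphatase Ptpn6 were thus at the top of the order, and the coreceptor Cr2 near its end.

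**Figure D2:**
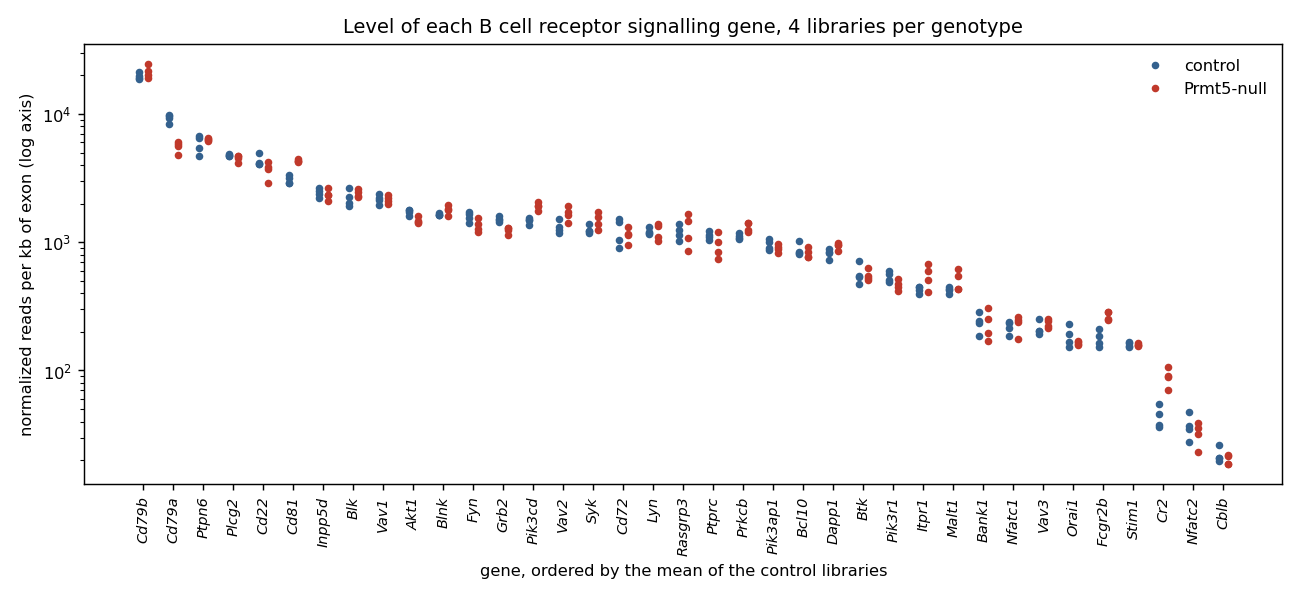
Normalized reads per kilobase of exon (y axis, log scale) of each gene in the 4 control (blue) and 4 Prmt5-null (red) libraries, ordered by the control mean. Cd79b lies at the top and Cblb at the end. The genotypes are apart for Cd79a, Cd81, Akt1, Grb2, Pik3cd, Prkcb, Fcgr2b and Cr2 but overlap for most genes.

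The chains that carry the signal of the receptor did not change together. Cd79a (Ig-alpha, ENSMUSG00000003379, chr7:24897381-24902197, plus strand, GRCm38) had 8137, 8809, 6939 and 8571 normalized counts in Prmt5-null libraries and 14257, 14069, 13565 and 12214 in controls. Every Prmt5-null library was below every control. The log2 fold change was -0.74 ± 0.09 (SE), a 1.67-fold fall with an adjusted p of 0.000327 in limma. It passed in each of the 17 alternative analyses, with log2 fold changes from -0.79 to -0.67.

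Its partner Cd79b (Ig-beta, ENSMUSG00000040592) had 30705, 28779, 35120.0 and 27528 normalized counts in Prmt5-null libraries against 26939.7, 30592, 28503 and 27406 in controls. These ranges overlapped, and the log2 fold change of 0.10, with a 95% interval from -0.10 to 0.30, did not pass (adjusted p = 0.491 in limma). The ratio of Cd79a to Cd79b per kilobase was chosen after their values were seen and is given without a test. It was 0.265 ± 0.0516 (SD, n = 4) in Prmt5-null and 0.469 ± 0.0359 in control libraries, with the highest Prmt5-null library at 0.306 and the lowest control at 0.438. The encoded proteins form a dimer, and the transcript of only the alpha chain passed the test.

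Both coreceptor genes of the list rose. Cr2, the complement receptor CD21 that binds antigen coated with complement (ENSMUSG00000026616, chr1:195136811-195176716, minus strand, GRCm38), had 570.3, 722, 740.1 and 861 normalized counts in Prmt5-null libraries and 307, 445, 371 and 295 in controls. No Prmt5-null library reached down to a control. The log2 fold change was 1.03 ± 0.16 (SE), which is 2.04-fold, with an adjusted p of 0.00137 in limma. A second row of the table carries the symbol Cr2 under the identifier ENSMUSG00000094924, which has no entry in the GENCODE annotation used here. It had means of 54.9 ± 24.5 and 37.4 ± 10.9 (SD, n = 4 each) in Prmt5-null and control libraries, with an adjusted p of 0.315 in limma, and reads could be split between these entries.

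Cd81, a tetraspanin of the coreceptor complex (ENSMUSG00000037706, chr7:143052739-143067934, plus strand, GRCm38), had 12101, 12354, 12272 and 12744 normalized counts in Prmt5-null libraries and 9645, 8411, 9127 and 8317 in controls. The Prmt5-null values were tightly grouped and all above the controls. Cd81 rose by 39.6%, a log2 fold change of 0.48 ± 0.07 (SE), with an adjusted p of 0.00122 in limma. Cd81 is also made by many cells other than B cells, and its rise stands beside the higher fibroblast markers given above, whose part in it was not tested.

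**Figure D3:**
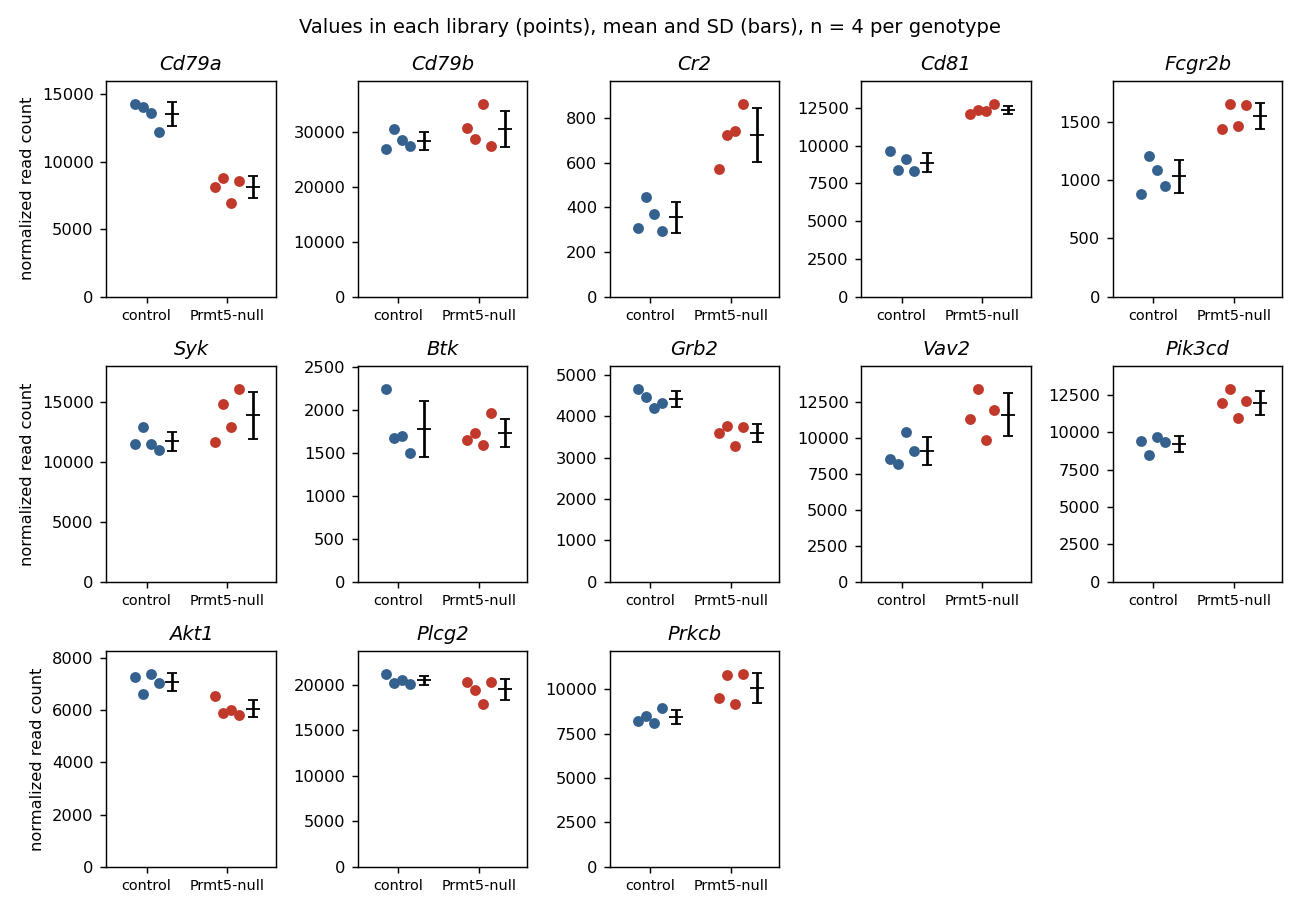
Normalized counts (y axis, from 0) of 13 genes in each control (blue) and Prmt5-null (red) library, with mean and SD as bars (n = 4 per genotype). The genotypes do not overlap for Cd79a, Cr2, Cd81, Fcgr2b, Grb2, Pik3cd, Akt1 and Prkcb, and overlap for Cd79b, Syk, Btk, Vav2 and Plcg2.

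Among the inhibitory receptors, only Fcgr2b passed. Fcgr2b, the Fc receptor that restrains the BCR when antigen is bound by IgG (ENSMUSG00000026656, chr1:170958617-170976547, minus strand, GRCm38), had 1442, 1653, 1468 and 1643 normalized counts in Prmt5-null libraries and 883, 1211, 1083 and 948 in controls. All Prmt5-null libraries were above all controls. The log2 fold change was 0.60 ± 0.11 (SE), which is 1.51-fold, with an adjusted p of 0.00379 in limma. The change lay at the 1.5-fold limit, and without Prmt5-null 10618 or 10771, or without CTRL-10650 or CTRL-10597, only 1 of the 37 genes was called higher in place of 2, while Fcgr2b kept an adjusted p of at most 0.0172 in all alternatives.

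Cd22, a lectin that carries inhibitory tyrosine motifs, ranged from 14593 to 21269 normalized counts in Prmt5-null and from 20449 to 25206 in control libraries, with a log2 fold change of -0.24 (95% interval -0.49 to 0.01). Cd72, another inhibitory lectin, ranged from 3277 to 4518 and from 3066 to 5235, with a log2 fold change of -0.08 (95% interval -0.42 to 0.27). Neither passed in limma (adjusted p of 0.193 and 0.794), and the libraries of each overlapped between genotypes. In the annotation 41.6% of the exonic length of Cd72 is shared with Tesk1 on the opposite strand and 9.50% of that of Cd22 with Gm29439, and the strand setting of the counting is not given in the sources used here.

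Transcript forms were listed for 4 of the 37 genes, in 5 rows of the splicing tables that the authors made with rMATS, while 11.4% of genes with a mean normalized count above 50, the filter of the study, had a row. All 37 genes were above that mean, so their share was 10.8%. The inclusion levels below are the authors' values, in lists of 4 per genotype that do not name their libraries. Each is the share of the longer or included form, by junction and target reads, among the forms that its row compares. The rows were deposited because they differed between genotypes, so they are described here without a test. Which list belongs to which genotype was taken from the study's definition of the difference, and the floxed exon of Prmt5 had levels from 0.989 to 1 in the list taken as control and from 0.027 to 0.304 in the other.

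Cd72 was listed for a choice between acceptor sites of 1 exon on the minus strand of chromosome 4. The segment between them, chr4:43449529-43449549, is 21 bases of coding sequence, which is 7 codons. It is shown with the end of the intron before each acceptor, in which the capitals mark the AG at which the intron ends. The sequences are from GENCODE M21 transcripts of GRCm38.
Cd72 segment: tacctctctgacgccccccag
Cd72 long-form acceptor: atattctcattgttcttcAGtac
Cd72 short-form acceptor: acctctctgacgccccccAGgtt
The segment itself ends in the AG of the acceptor of the short form. Of the 18 bases before the AG, 14 were pyrimidines at either acceptor.

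The level of the longer Cd72 form was 0.374, 0.333, 0.344 and 0.353 in control and 0.261, 0.241, 0.22 and 0.197 in Prmt5-null libraries. All Prmt5-null levels were below all control levels, and the means differed by 0.121. From 197 to 483 reads per library lay behind these levels. In Prmt5-null iGBs a larger share of the Cd72 forms that the row compares thus lacked the 7 codons. The total level of Cd72 did not pass the test.

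The Src family kinases start the signal, and Lyn also starts its inhibition. The listed members Lyn, Blk and Fyn did not pass. Lck and Fgr, family members outside the list that are described below, were lower. Their log2 fold changes were -0.94 and -1.01 (adjusted p of 0.000852 and 0.0317 in limma). Lyn ranged from 4175 to 5624 normalized counts in Prmt5-null and from 4719.7 to 5369 in control libraries, with a log2 fold change of -0.02 (95% interval -0.24 to 0.20). Blk had a log2 fold change of 0.13 and Fyn of -0.23, with adjusted p-values of 0.424 and 0.122 in limma. Over the 8 Src family genes measured, Blk gave 40.1% of the reads per kilobase in control and 45.2% in Prmt5-null libraries, Fyn 29.0% and 25.4%, and Lyn 22.2% and 22.7%. These ranges overlapped between genotypes for each of the 3 kinases.

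Lyn was listed for a choice between donor sites of exon 2 on chromosome 4, plus strand, which makes the long and short forms of the kinase known as LynA and LynB. The segment between the donors is 63 bases of coding sequence, or 21 codons, so the reading frame after it does not shift.

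The level of the longer Lyn form was 0.728, 0.667, 0.715 and 0.607 in control and 0.508, 0.593, 0.524 and 0.545 in Prmt5-null libraries. The lists did not overlap, the lowest control being 0.607 and the highest Prmt5-null 0.593. The means were 0.679 and 0.542, a difference of 0.137, with 149 to 257 reads per library. The donor of the long form was used less in Prmt5-null iGBs, whereas the count of the whole gene did not pass the test.

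Syk and Btk, the kinases that carry the signal from the chains to phospholipase C, did not pass. Syk had 11679.6, 14837, 12932 and 16069.6 normalized counts in Prmt5-null libraries and 11461, 12888, 11463 and 11017 in controls. Its log2 fold change was 0.24 (95% interval 0.02 to 0.46, adjusted p = 0.144 in limma), and the genotypes overlapped. Btk had 1651, 1729, 1598 and 1972 in Prmt5-null libraries and 2246, 1677, 1704 and 1500.2 in controls. Its log2 fold change was -0.02 (95% interval -0.29 to 0.24, adjusted p = 0.922 in limma), with the highest value in a control library.

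Of the 5 adaptors, which tether enzymes to the receptor complex, Grb2 alone passed. Grb2, which links receptors to the Ras activator Sos (ENSMUSG00000059923, chr11:115644045-115708597, minus strand, GRCm38), had 3605, 3755, 3294 and 3736 normalized counts in Prmt5-null libraries and 4654, 4463, 4202 and 4332 in controls. Each Prmt5-null library was below each control. Grb2 fell by 18.5%, a log2 fold change of -0.30 ± 0.07 (SE), with an adjusted p of 0.0185 in limma, which rose to 0.0562 without CTRL-10650. Blnk, the scaffold that joins Syk to its targets, had a log2 fold change of 0.12, Bank1, a scaffold for Lyn, -0.06, Dapp1, which binds the lipid products of phosphoinositide 3-kinase, 0.21, and Pik3ap1, which recruits that kinase, -0.10. Their adjusted p-values were from 0.119 to 0.871 in limma, and the libraries of all 4 overlapped between the genotypes.

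The Vav exchange factors, which activate Rac after receptor binding, differed in their result. Vav2 (ENSMUSG00000009621, chr2:27262104-27427033, minus strand, GRCm38) had 11279.6, 13364, 9821 and 11942 normalized counts in Prmt5-null libraries and 8551, 8178, 10416 and 9077 in controls. The lowest Prmt5-null library was below the highest control. The log2 fold change was 0.35 ± 0.10 (SE), with an adjusted p of 0.0428 in limma, and it stayed past the threshold in 8 of 17 alternatives. Vav1 and Vav3 had log2 fold changes of 0.00 and 0.13, with adjusted p-values of 0.984 and 0.431 in limma. Vav2 made up 35.5% ± 1.71 (SD, n = 4) of the reads per kilobase of the 3 Vav genes in control and 41.2% ± 1.77 in Prmt5-null libraries.

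Of the 3 genes of the phosphoinositide 3-kinase arm among the 37, Pik3cd alone passed. Pik3cd, the delta catalytic subunit that acts in lymphocytes (ENSMUSG00000039936, chr4:149649168-149702571, minus strand, GRCm38), had 11944, 12882, 10971 and 12100.3 normalized counts in Prmt5-null libraries and 9391, 8467, 9697 and 9369.6 in controls. All Prmt5-null libraries were above all controls. Pik3cd rose by 29.7%, a log2 fold change of 0.37 ± 0.08 (SE), with an adjusted p of 0.00706 in limma. Of the 4 class I catalytic genes, Pik3cd gave 69.2% ± 0.46 of the reads per kilobase in control and 74.9% ± 0.955 in Prmt5-null libraries (SD, n = 4), with no overlap.

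Pik3r1, the main regulatory subunit, had a log2 fold change of -0.22 (95% interval -0.41 to -0.02, adjusted p = 0.127 in limma), and its libraries overlapped. Akt1, the kinase recruited by the lipids that this enzyme makes, had 6538, 5878, 5980.1 and 5789 normalized counts in Prmt5-null libraries and 7261, 6603, 7357 and 7023 in controls. Each Prmt5-null library was below each control, but the log2 fold change of -0.22 ± 0.07 (SE) had an adjusted p of 0.0562 in limma and passed in 3 of 17 alternatives. Akt1 remained the most abundant Akt gene per kilobase, with 73.4% ± 2.42 of the 3 Akt genes in control and 69.4% ± 0.996 in Prmt5-null libraries (SD, n = 4), and these ranges overlapped.

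Pik3cd also had a row for a skipped exon, a noncoding exon of 175 bases that is exon 2 of the transcript Pik3cd-202. Its inclusion level was 1 in all 4 control libraries and 0.869, 1, 0.959 and 0.907 in Prmt5-null libraries. The lists overlapped, and only 29 to 68 reads per library supported the levels, the fewest of the rows described here.

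The listed phosphatases and the listed ubiquitin ligase that set or end the signal did not pass at the level of the gene. Inpp5d, the lipid phosphatase SHIP recruited by Fcgr2b, had a log2 fold change of -0.05, Ptpn6, the tyrosine phosphatase SHP-1, 0.13, and Cblb, the ligase that marks receptors for removal, -0.10, with adjusted p-values from 0.447 to 0.745 in limma. Ptprc, the tyrosine phosphatase CD45 that activates the Src family kinases, ranged from 13629 to 22116 normalized counts in Prmt5-null and from 18973 to 22382 in control libraries. Its log2 fold change was -0.27 (95% interval -0.55 to 0.02, adjusted p = 0.195 in limma), and without Prmt5-null 10618, whose value was the highest of its genotype, it was -0.39 with an adjusted p of 0.0298. The libraries of all 4 genes overlapped between genotypes.

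Ptprc had 2 rows in the splicing tables, for the exons that encode the outer part of the receptor and that B cells mostly keep. Exon 4 of the transcript Ptprc-207, chr1:138122456-138122584, has 129 bases and is the first of the variable exons, called A. Exon 5, chr1:138120020-138120166, has 147 bases, and exon 7, chr1:138116954-138117025, has 72. They lie on the minus strand of GRCm38, all are coding, and each length is a multiple of 3, so that these forms keep the reading frame. The exons are shown whole, as the parts of CD45 that the rows concern, with no bases in capitals.
Ptprc exon 4: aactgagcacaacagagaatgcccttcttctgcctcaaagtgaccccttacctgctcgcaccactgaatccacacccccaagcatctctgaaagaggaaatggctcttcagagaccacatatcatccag
Ptprc exon 5: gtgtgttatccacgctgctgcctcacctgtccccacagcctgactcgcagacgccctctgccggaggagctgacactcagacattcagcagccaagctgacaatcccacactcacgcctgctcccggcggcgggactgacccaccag
Ptprc exon 7: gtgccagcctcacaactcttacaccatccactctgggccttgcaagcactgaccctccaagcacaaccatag

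The inclusion level of exon 4 was 0.875, 0.943, 0.871 and 0.895 in control and 0.748, 0.717, 0.778 and 0.591 in Prmt5-null libraries. The lists did not overlap, and the means of 0.896 and 0.708 differed by 0.188, the largest difference among the 5 rows. These levels rested on 480 to 1157 reads per library, 6091 in all.

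The other Ptprc row set exon 5 against exon 7 as alternatives, although the transcript Ptprc-207 holds both. The level of this row compares these forms only and is not the share of all Ptprc transcripts with exon 5. The level of the form with exon 5 was 0.23, 0.153, 0.264 and 0.203 in control and 0.277, 0.308, 0.293 and 0.393 in Prmt5-null libraries, so each Prmt5-null level was above each control level. The means differed by 0.105, and by 0.138 when the authors used junction reads alone. Among the forms that the exon 4 row compares, most in Prmt5-null libraries still held exon 4, but it was skipped more often than in controls.

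**Figure D4:**
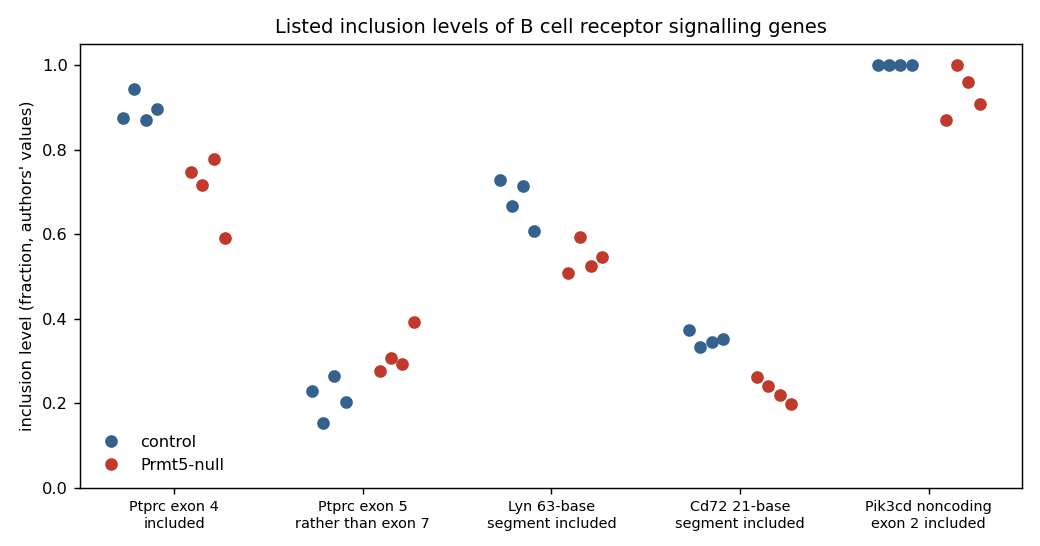
The authors' inclusion levels (y axis, fraction from 0 to 1) in the 4 control (blue) and 4 Prmt5-null (red) libraries for the 5 rows of Ptprc, Lyn, Cd72 and Pik3cd. The levels do not overlap for the rows of Ptprc, Lyn and Cd72, and overlap for Pik3cd, where 1 Prmt5-null level equals the controls at 1.

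The listed phospholipase C gene and the listed genes that its products act on did not pass either. Plcg2, the phospholipase C gamma of B cells, had 20324, 19398, 17895 and 20299 normalized counts in Prmt5-null libraries and 21131, 20180.3, 20549.7 and 20053 in controls. Its log2 fold change was -0.07 (95% interval -0.23 to 0.08, adjusted p = 0.535 in limma), and it made up 93.7% of the reads per kilobase of Plcg1 and Plcg2 in control and 93.8% in Prmt5-null libraries.

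Prkcb, the protein kinase C that leads from the BCR to NF-kB, had 9492, 10786, 9171 and 10837 normalized counts in Prmt5-null libraries and 8223, 8494, 8072 and 8958 in controls. All Prmt5-null libraries were above all controls, but the log2 fold change of 0.25 ± 0.08 (SE) had an adjusted p of 0.0526 in limma and passed in 4 of 17 alternatives. Of its partners, Rasgrp3, a Ras activator, had a log2 fold change of 0.03, Bcl10 of -0.09 and Malt1, which forms a complex with Bcl10, of 0.24, with adjusted p-values of 0.935, 0.566 and 0.184 in limma. Rasgrp3 ranged widely between Prmt5-null libraries, from 5017 to 9697 normalized counts, against 6021 to 8109 in controls.

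The calcium genes and NFAT factors, the last steps listed, had no member that passed. Itpr1, a receptor through which calcium leaves the endoplasmic reticulum, had 9272, 12500.5, 7467 and 10897 normalized counts in Prmt5-null libraries and 7776, 7198, 8219 and 8236 in controls. The ranges overlapped, and the log2 fold change of 0.33 (95% interval 0.04 to 0.62) had an adjusted p of 0.124 in limma. Without Prmt5-null 10770, the lowest library of its genotype, it was 0.46 with an adjusted p of 0.00905. As a share of the reads per kilobase of the 3 Itpr genes, Itpr1 was at 26.5% ± 0.939 in control and 37.3% ± 3.10 in Prmt5-null libraries (SD, n = 4), with no overlap. Itpr2 and Itpr3 fell by 0.55 and 0.35 on the log2 scale (adjusted p of 0.00221 and 0.0217 in limma).

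Stim1, the calcium sensor, had a log2 fold change of 0.00 and ranged from 1621 to 1699 normalized counts in Prmt5-null and from 1567 to 1723 in control libraries. Orai1, the channel it opens, had -0.16, Nfatc1 had 0.08 and Nfatc2 had -0.18, and the adjusted p-values of these 4 genes were from 0.467 to 0.983 in limma. The 95% intervals of Orai1, from -0.44 to 0.13, and Nfatc2, from -0.59 to 0.23, leave changes of moderate size undetected.

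A wider list of 115 genes of the same pathway put these members in context. Of the 114 that reached the minimum mean, 8 were higher and 11 lower at an adjusted p below 0.05. That is 7.02% and 9.65%, against 6.51% and 7.33% of all genes tested. The median log2 fold change of the 114 was -0.03. The largest changes downward were those of Pik3cg, Fgr and Lck, and the largest upward were those of Cd38, Ptpn22 and Sla2.

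Pik3cg, the gamma catalytic subunit, fell by 1.08 on the log2 scale (adjusted p = 0.0386 in limma), Fgr by 1.01 (adjusted p = 0.0317 in limma) and Lck by 0.94 (adjusted p = 0.000852 in limma). Fgr and Lck are Src family kinases that are best known from myeloid cells and T cells. The summed T cell markers given above overlapped between genotypes, at 103 to 214 in Prmt5-null and 203 to 319 in control libraries. Only 3 of these 8 T cell markers reached the minimum mean for testing. Their log2 fold changes were -0.83 for Trac, -0.78 for Cd28 and -0.95 for Zap70. The adjusted p-values were from 0.101 to 0.152 in limma, so 0 passed. The myeloid markers summed to 79.6 to 168 in Prmt5-null and 78.2 to 167 in control libraries. The part of either cell type in the falls of Pik3cg, Fgr and Lck was not tested. Cd38, an ectoenzyme that can associate with the BCR, had a log2 fold change of 1.01 (adjusted p = 0.00258 in limma), Ptpn22, a phosphatase of Src family kinases, of 0.73 (adjusted p = 0.0048 in limma), and Sla2, an adaptor that dampens receptor signalling, of 0.52 (adjusted p = 0.0383 in limma). For each of these 6 pathway genes the libraries of the genotypes did not overlap. Splicing rows were listed for 17 of the 115 genes, or 15.6% of the 109 with a mean above 50, against 11.4% of all genes above that mean.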

How the data were processed

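Total RNA from 8 cultures was depleted of ribosomal RNA and sequenced. Per the labels and the study's methods, trimming was by Trimmomatic 0.32, alignment to GRCm38 by STAR 2.3.0e and counting on Ensembl genes by featureCounts 1.4.4, and the authors deposited a signal, which is each read count divided by the DESeq2 1.14.1 size factor of its library ("normalized count"). Dividing by what 1 read is worth gave whole reads for 100% of values, within 0.01 read, and totals from 42752293 to 47174851 in Prmt5-null and from 36731721 to 50366174 in control libraries. The authors also deposited rMATS tables of inclusion levels and reads, with their own p-values and FDR values, which were not used.

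Genes with a mean of at least 10 (16250 of 39017) were tested with limma 3.58.1 in R 4.3.3 (lmFit, eBayes with a trend) on the log2 of the normalized count plus 1, and p-values were adjusted over all of them by Benjamini-Hochberg, so fold changes of low genes are understated. Calls needed a change of at least 1.5-fold and an adjusted p below 0.05. Alternatives were pseudocounts of 0.5 and 8, no filter, a mean above 50, quantile normalization, no trend, edgeR 4.0.16 and DESeq2 1.42.0 on recovered reads, a threshold of 0.01, leaving out each library, and a block by the side of the second principal component. Scripts were tested on simulated data. Tables and figures used pandas 2.3.3, NumPy 2.4.6 and matplotlib 3.10.9 under Python 3.11.15. The deposited design names 2 experiments with both genotypes in each, but no label ties them to libraries. Exon positions and sequences were read from GENCODE M21.

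The 37 genes and the other lists were chosen with earlier results of these data known. Values in every library are given for genes with an adjusted p below 0.05 or without overlap between genotypes and for Cd79a, Cd79b, Syk, Btk and Plcg2. Of the other pathway genes the 3 largest changes in each direction are named, and every splicing row of the 37 genes is given. Values in every library of Itpr1, and the shares within gene families, are outside this rule, having been chosen after the values were seen. Some sequences and genes are not reported here.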

Additional observations from a re-analysis of the deposited data

Results flagged for a closer look

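In 2 of 76 groups of 4 libraries, which are the 37 genes and Prmt5 in each genotype, 1 library stood apart from the other 3 by a gap larger than Dixon's limit, which chance passes in about 1 of 20 groups. Cd22 had 25206 normalized counts in CTRL-10596, against 20449 to 20970.5 in the other controls. Bcl10 had 4652 normalized counts in CTRL-10370, against 3702 to 3833 in the other controls. Neither gene passed the test between genotypes in any of the 17 alternatives.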

How the results depend on the processing

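Of the 7 genes with an adjusted p below 0.05, 7 kept their direction in all 17 alternatives and 5 also kept an adjusted p below 0.05 in all of them, the exceptions being Vav2 and Grb2. Of the other 30 genes, 25 passed in no alternative. Vav2 had an adjusted p above 0.05 with no filter (0.0568), quantile normalization (0.0544), no trend (0.0992) and without 6 of the 8 libraries. With the block by the second principal component, 4 of the 37 genes were lower in place of 2, Akt1 and Fyn being added. At a threshold of 0.01, 637 of all genes were called in place of 1053. The wider pathway list had 5 higher and 7 lower genes with no trend, and 17 lower with DESeq2, in place of 8 and 11. A difference in inclusion level of at least 0.25 was reached by 0 of the 4 genes with a splicing row.

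Leaving out 1 library at a time gave 795 to 1173 called genes, 1 to 2 of the 37 called higher and 1 called lower, 4 to 7 higher and 1 to 3 lower at an adjusted p below 0.05, and 2 to 9 higher and 7 to 13 lower in the wider list, where the lowest count of 2 came without Prmt5-null 10771. It changed the sign of small, uncalled log2 fold changes of Cd72 (-0.22 to 0.0415), Lyn (-0.0835 to 0.0596), Btk (-0.10 to 0.0923), Bank1 (-0.21 to 0.0832), Vav1 (-0.055 to 0.0404), Inpp5d (-0.11 to 0.00526), Rasgrp3 (-0.12 to 0.20) and Stim1 (-0.0213 to 0.0244). Quantile normalization gave Vav1 0.0116. The causes were not tested. No paired analysis was possible because the genotypes share no replicate numbers. Feeder RNA, the unnamed order of the splicing lists and the untied experiments limit these comparisons.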
